A study of Mus musculus with 3 samples.

Results

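The Schlafen genes are a mouse gene family named for its members' effects on the growth of developing T cells. Their level was taken from the rows of a count table named Slfn1, Slfn2, Slfn3, Slfn4, Slfn5, Slfn8 and Slfn9, which are 7 of its 44788 rows. All 7 had a row, and 4 further rows of the family (Slfn10-ps, Slfn14, Slfnl1 and Slfn5os) are described beside them. The table holds 3 RNA-sequencing libraries of T lymphocytes from spleens of female BALB/c mice, pulled from the spleen suspension with beads against CD90.2, a T cell surface protein. The cells were kept in serum-containing RPMI culture and exposed for 10 h to LZ-8, a protein of the medicinal fungus Ganoderma lucidum that acts on immune cells. The mice were described as six-to-eight week old, and red blood cells had been lysed. The 3 libraries form 1 group (replicates 1 to 3), and every library came from treated cells, so levels are described and a response to LZ-8 cannot be read from them. Nothing in the labels says that the replicates were separate mice or cultures, so the spread between them may be technical. In RNA from a pool of cells, fewer cells with a transcript and less transcript per cell cannot be told apart.

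Schlafen proteins share an amino-terminal core that binds RNA, and in several members this core cuts transfer RNA or shields it from being cut. The short members, Slfn1 and Slfn2, hold little beyond this core, Slfn3 and Slfn4 carry an added linker domain, and the long members, Slfn5, Slfn8 and Slfn9, end in a helicase-like domain. Many members are induced by type I interferon. Slfn2 is the best studied in T cells, where it is needed to keep resting cells quiescent and to keep transfer RNA intact during activation.

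One short member made up most of the family's messenger RNA in these T cells. Slfn2 had 765, 798 and 845 CPM in replicates 1, 2 and 3, where CPM is the read count brought to a common library size. Its mean of 803 ± 40.0 CPM (SD, n = 3 here and below) ranked 101 among all 44788 rows. Slfn1, which slows the growth of thymocytes when overproduced, had 175, 204 and 215 CPM. Slfn8, a long member, had 93.7, 121 and 125 CPM. In both genes replicate 1 was low and replicates 2 and 3 lay close together.

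The remaining members were far less abundant. Slfn5, a nuclear protein induced by interferon, had 23.0, 28.2 and 31.7 CPM. Slfn3 had 9.66, 10.3 and 14.8 CPM, with replicate 3 above the other libraries. Slfn9, the close copy of Slfn8, had 8.09, 9.04 and 10.2 CPM. Slfn4, known mainly from myeloid cells, had 4.87, 4.02 and 4.40 CPM, from 62, 61 and 71 counts. The exact 95% counting intervals of Slfn4 (3.73 to 6.24, 3.08 to 5.17 and 3.43 to 5.55 CPM) overlapped in all 3 libraries. With a mean of 10 CPM or more were 5 of the 7 members, against 20.6% of all rows.

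**Figure D1:**
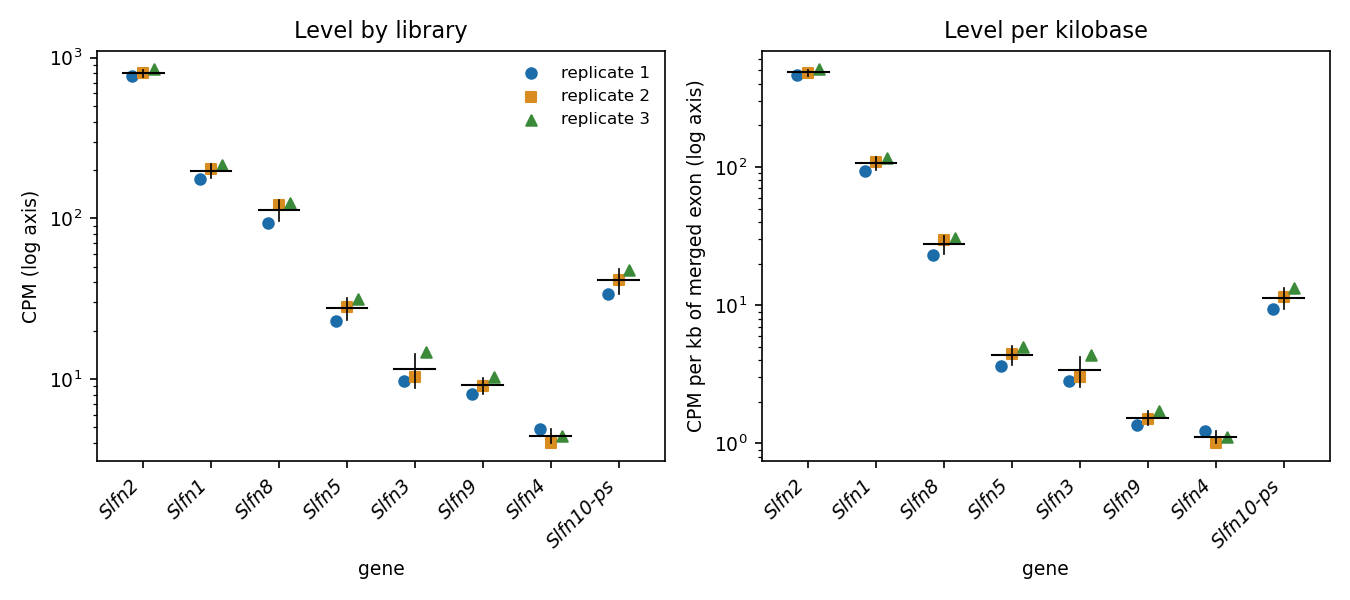
Level of the 7 Schlafen members and of Slfn10-ps in each of the 3 libraries, as CPM (left) and as CPM per kilobase of merged exon (right), both on log axes. Horizontal bars are means and vertical bars SDs. Slfn2 stands above the rest in every library, and Slfn4 is lowest on both scales.

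Transcript length differs between members, so levels of different genes were compared per kilobase of merged exon. Slfn2 was at 482 ± 24.0 CPM per kilobase, rank 29 among 21022 protein-coding genes with a length. Slfn1 followed at 106 ± 11.0, then Slfn8 at 27.7 ± 4.17 and Slfn5 at 4.37 ± 0.687 CPM per kilobase. Slfn3 was at 3.40 ± 0.823, Slfn9 at 1.53 ± 0.179 and Slfn4 at 1.12 ± 0.107 CPM per kilobase. The range from Slfn2 to Slfn4 was 433-fold (log2 ratio per kilobase 8.76 ± 0.18).

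Each of the 6 neighbouring pairs in this order kept its sign in all 3 libraries, with a mean log2 ratio above its SD. The order itself was set by the means of these same 3 libraries. The exact two-sided sign-flip test gave 0.25 for every pair, the smallest p that 3 libraries allow. Slfn2 exceeded Slfn1 4.56-fold (log2 ratio 2.19 ± 0.09), Slfn1 exceeded Slfn8 3.85-fold (1.94 ± 0.08), and Slfn8 exceeded Slfn5 6.35-fold (2.67 ± 0.06). The lower steps were smaller. Slfn5 exceeded Slfn3 by a log2 ratio of 0.36, 0.56 and 0.21 in replicates 1, 2 and 3, and Slfn9 exceeded Slfn4 by 0.14, 0.58 and 0.63. The order was the same per kilobase of coding sequence and of the longest transcript, with log2 ratios of 0.80 and 0.19 between Slfn5 and Slfn3.

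As a share of the family, Slfn2 held 70.9% of the members' counts in replicate 1 (exact 95% interval 70.1% to 71.6%). It held 67.9% in replicate 2 (67.2% to 68.6%) and 67.8% in replicate 3 (67.2% to 68.5%). The interval of replicate 1 did not overlap those of the other libraries, whose intervals overlapped. Slfn8 moved the other way, with 8.68%, 10.3% and 10.0% of counts. Shares within a family are tied, so a lower share of Slfn2 goes with higher shares elsewhere. These intervals cover counting error only. Per kilobase, Slfn2 made up 77.0 ± 1.28% of the family and both short members together 93.9 ± 0.527%. The long members held 5.34 ± 0.505% and the intermediate members, Slfn3 and Slfn4, 0.718 ± 0.0912%.

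The 7 members form 1 cluster on chromosome 11 that spans 264 kb, from base 82951349 to base 83215154 (gene bounds of GENCODE release M21 on the GRCm38 build). In order along the chromosome they are Slfn5 (82951349 to 82964840, plus strand), Slfn9 (82978390 to 82991830, minus strand) and Slfn8 (83002158 to 83020810, minus strand). Then follow Slfn2 (83065112 to 83070678), Slfn1 (83116849 to 83122670), Slfn4 (83175186 to 83190216) and Slfn3 (83191330 to 83215154), all on the plus strand. The abundant short members sit in the middle of the cluster. Slfn4 and Slfn3 are the next genes of the family on the same strand, at 1.12 and 3.40 CPM per kilobase.

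The other Schlafen rows were low, with 1 exception. Slfn10-ps, annotated as a transcribed pseudogene between Slfn8 and Slfn2, had 33.8, 41.5 and 48.0 CPM, more than Slfn5 in every library. Per kilobase it was at 11.4 ± 1.97 CPM, and Slfn8 exceeded it 2.45-fold (log2 ratio 1.29 ± 0.08). Slfn14, a long member beyond Slfn3, had 0, 1 and 0 counts. Slfnl1, a distant relative on chromosome 4, had 5, 4 and 2 counts. Slfn5os, an antisense transcript that overlaps Slfn5, had 0 counts in all 3 libraries, which allows up to 0.236, 0.198 and 0.186 CPM at a floor of 3 counts. Intervals and floors cover counting error only. The strand setting of the counting is not known, so the counts of Slfn5os and Slfn5 are uncertain where the genes overlap.

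Genes on either side of the cluster ranged from undetected to moderately abundant. Before Slfn5, the ribosome assembly gene Nle1 was at 34.0 ± 1.21 CPM per kilobase, while Unc45b, a muscle myosin chaperone gene between Nle1 and Slfn5, was at 0.0867 ± 0.0246 and Fndc8 had 0 counts. Beyond Slfn14, the clathrin adaptor gene Ap2b1 was at 29.9 ± 2.07 and Rasl10b at 0.0415 ± 0.0583 CPM per kilobase. Slfn2 and Slfn1 exceeded each of these neighbours.

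**Figure D2:**
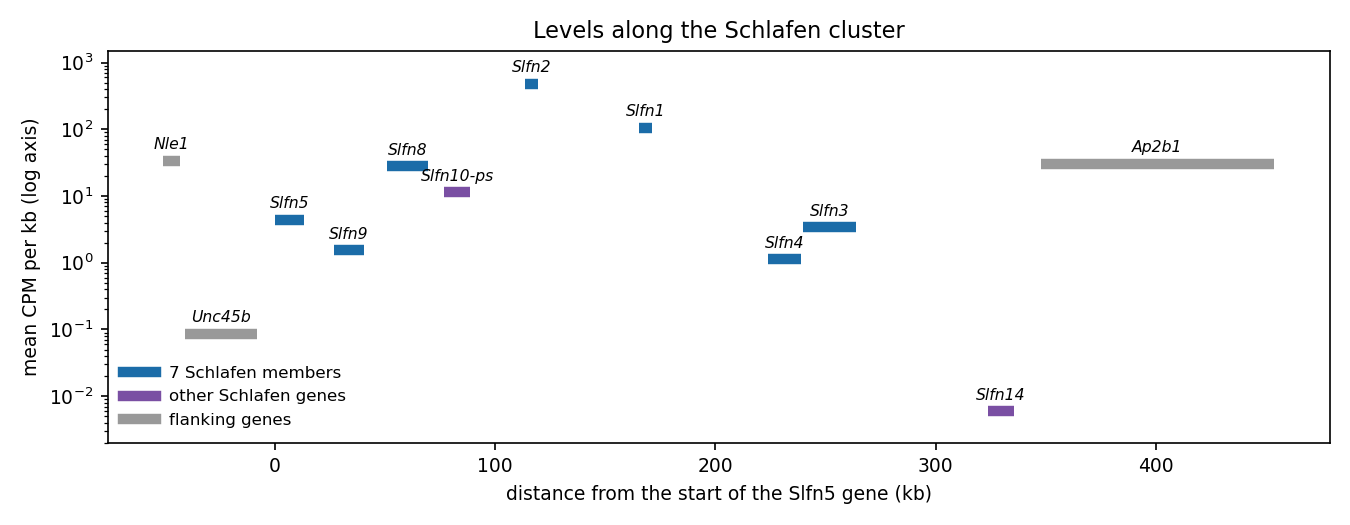
Mean CPM per kilobase (log axis) of genes along the Schlafen cluster against distance from the start of the Slfn5 gene in kb. Each bar spans a gene, coloured for the 7 members, the other Schlafen genes and 3 flanking genes (Nle1, Unc45b, Ap2b1). Slfn2 at 482 and Slfn1 at 106 CPM per kilobase lie between genes of the family at 1 to 30, and Slfn14 is near the axis.

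Members that are close copies can lose or share reads, so their sequences were compared (coding sequences of GENCODE M21 transcripts). Slfn8 and Slfn9 were 92.7% identical over 2730 coding bases, and Slfn3 and Slfn4 91.6% identical over 1779 aligned bases. The abundant pair was far more distinct, with 69.0% identity between Slfn1 and Slfn2 over 1008 aligned bases. The longest identical coding stretches of the close pairs are printed because reads that fall wholly inside them cannot be assigned. For Slfn8 and Slfn9 the identical stretch is 139 bases, shown with 25 bases on either side (coding bases 2515 to 2703 of both), and capitals mark the 10 bases that differ.
Slfn8: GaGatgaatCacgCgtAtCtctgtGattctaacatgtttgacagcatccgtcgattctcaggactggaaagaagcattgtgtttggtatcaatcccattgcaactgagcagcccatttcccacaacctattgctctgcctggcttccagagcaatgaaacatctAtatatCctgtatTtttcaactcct
Slfn9: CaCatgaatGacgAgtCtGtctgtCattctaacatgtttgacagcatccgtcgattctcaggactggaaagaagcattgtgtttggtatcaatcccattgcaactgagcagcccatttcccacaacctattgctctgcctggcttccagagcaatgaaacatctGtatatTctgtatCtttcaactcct

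For Slfn3 and Slfn4 the longest identical stretch is 95 bases, within coding bases 1408 to 1552 of Slfn3 and 1276 to 1420 of Slfn4, with 3 differing bases in capitals.
Slfn3: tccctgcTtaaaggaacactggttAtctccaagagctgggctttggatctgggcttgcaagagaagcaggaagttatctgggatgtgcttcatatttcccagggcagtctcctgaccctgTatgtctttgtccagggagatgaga
Slfn4: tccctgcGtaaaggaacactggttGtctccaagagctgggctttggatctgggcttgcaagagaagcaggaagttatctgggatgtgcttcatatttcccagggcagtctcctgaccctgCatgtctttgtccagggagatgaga

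Over whole transcripts, such shared stretches were a small part. Of all 100-base stretches, 100% were found in no other gene's transcripts for Slfn1, 99.9% for Slfn2, 99.7% for Slfn4, 97.1% for Slfn3, 96.6% for Slfn8, 96.3% for Slfn9 and 93.6% for Slfn5. Slfn3 shared none of its 100-base stretches with Slfn4, and those of Slfn5 that were not unique were shared outside the family. The shared stretches of Slfn9 were with Slfn10-ps (3.03%) and Slfn8 (0.839%). With stretches of 50 bases, unique shares were 85.4% for Slfn8, 84.0% for Slfn3 and 99.4% for Slfn1. Read length and the treatment of reads with several matches are not stated by any source used here, so counts of Slfn8, Slfn9 and Slfn10-ps, and of Slfn3 and Slfn4, are uncertain to that extent. Per kilobase of unique 100-base stretches, the 7 members kept the order given above. Reference sequences are of C57BL/6J mice and the cells were BALB/c, and the part of strain differences in these counts was not tested.

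The 250 bases before each start site and 50 after it were searched for interferon response motifs, since type I interferon is the best known inducer of the family (RefSeq sequences, GRCm38.p6, all 7 members matched). The core of the interferon-stimulated response element, GAAANNGAAA on either strand, was found in 3 of 7 members (Slfn5, Slfn8 and Slfn9). By window it was found in 4 of the members' 8, against 3.44% of 32851 promoter windows of the same length. Both windows of Slfn8 held the same match. In a list of interferon-stimulated effector genes the core was found in 12 of the 20 with a window, counted by gene. The core of the gamma-activated site, TTCNNNGAA, was found in 0 of 7 members and 0 of their 8 windows, against 8.30% of all windows. A match is a description of the letters, not of binding. In Slfn8 and Slfn9 the same match lies 48 and 45 bases before a start site, and the 50 bases around it are printed with the match, on the strand opposite to the gene's, in capitals. They are at chr11:83020829-83020878 (Slfn8) and chr11:82991846-82991895 (Slfn9), both given on the minus strand, with the Slfn5 match at chr11:82951927-82951976 on the plus strand.
Slfn8: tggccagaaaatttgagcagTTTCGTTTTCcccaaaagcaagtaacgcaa
Slfn9: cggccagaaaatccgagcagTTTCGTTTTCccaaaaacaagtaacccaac
Slfn5: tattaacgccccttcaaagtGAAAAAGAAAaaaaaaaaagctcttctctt

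The Slfn5 match, 155 bases before a RefSeq start site, runs into a stretch of A bases. By the GENCODE bounds given above, where Slfn5 starts at base 82951349, this match lies inside the gene. Slfn2, the most abundant member, had no match in its window, and its 250 upstream bases (chr11:83064862-83065111, plus strand) are given for comparison, in lower case because none matched.
Slfn2: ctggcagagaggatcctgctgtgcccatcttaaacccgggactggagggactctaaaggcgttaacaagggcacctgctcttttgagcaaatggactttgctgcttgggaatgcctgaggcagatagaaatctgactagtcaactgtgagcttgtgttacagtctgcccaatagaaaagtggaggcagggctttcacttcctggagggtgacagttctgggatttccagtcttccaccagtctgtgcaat

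Members with and without the motif did not separate by level. With it, levels were 27.7 (Slfn8), 4.37 (Slfn5) and 1.53 (Slfn9) CPM per kilobase, and without it they ranged from 1.12 (Slfn4) to 482 (Slfn2).

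Variation between the 3 libraries was tested with a chi-square test of each gene's counts against the library sizes, adjusted by the Benjamini-Hochberg method over 15392 genes. This compares libraries, not conditions, and sets their spread against counting error alone, so a small p says that libraries differ by more than counting and nothing of the spread between animals or cultures. All 7 members could be tested and 5 were called at an adjusted p of 0.05, against 42.8% of all genes tested. Genes with more counts are called more readily by this test. Among genes expected to have 20 or more counts in each library, 50.4% were called. The 5 called were Slfn8 (adjusted p = 1.12e-14), Slfn1 (2.45e-12), Slfn2 (3.28e-12), Slfn3 (0.000177) and Slfn5 (0.000314). Slfn9 (0.266) and Slfn4 (0.667), the members with the fewest counts, were not called. Each of the 5 was lowest in replicate 1 and highest in replicate 3. A call in this direction was thus made for 5 of 7 members, against 16.1% of all genes tested. The direction was read from the members' own values, so this share describes them and is not a test. The 16.1% is not limited to genes with similar counts.

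Differences were modest in size. The highest library exceeded the lowest 1.10-fold for Slfn2, 1.23-fold for Slfn1, 1.33-fold for Slfn8, 1.38-fold for Slfn5 and 1.53-fold for Slfn3. The coefficient of variation was 4.98% for Slfn2, 10.4% for Slfn1, 15.1% for Slfn8, 15.7% for Slfn5 and 24.2% for Slfn3. The median over 9204 genes of 10 CPM or more was 8.67%, above the value of Slfn2, the lowest of the 7 members. That median is not matched to the high counts of Slfn2, so it does not show that Slfn2 was unusually stable. The median log2 ratio of replicate 3 to replicate 1 was 0.32 over the 7 members and 0.02 over all genes tested. Without replicate 1, 2 members were called, against 24.4% of genes, Slfn2 (adjusted p = 5.6e-05) and Slfn3 (0.00277), while Slfn1 (0.104), Slfn5 (0.208) and Slfn8 (0.607) were not. Without replicate 3, Slfn3 was not called (0.767) and 4 members were called, against 22.8% of genes.

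All 7 members had a GC content below the median of genes tested (49.6%), from 43.2% for Slfn9 to 49.5% for Slfn2. A smooth trend of each library's counts with GC content and merged exon length was fitted over matched genes of 5 CPM or more. With it removed, the log2 ratio of replicate 3 to replicate 1 moved from 0.45 to 0.27 for Slfn5, from 0.41 to 0.27 for Slfn8 and from 0.59 to 0.49 for Slfn3. It moved from 0.14 to 0.24 for Slfn2 and from 0.29 to 0.31 for Slfn1. For Slfn9 it moved from 0.32 to 0.11 and for Slfn4 from -0.13 to -0.28. The ratios of Slfn2 and Slfn8, whose shares of counts had moved apart, were then close (0.24 and 0.27). Over the 7 members the ratios still ran from -0.28 to 0.49. By the chi-square test in that fit 4 members were called, and Slfn5 was not (adjusted p = 0.0829), against 35.9% of all genes. The adjusted p of Slfn2 went from 3.28e-12 to 2.36e-35.

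**Figure D3:**
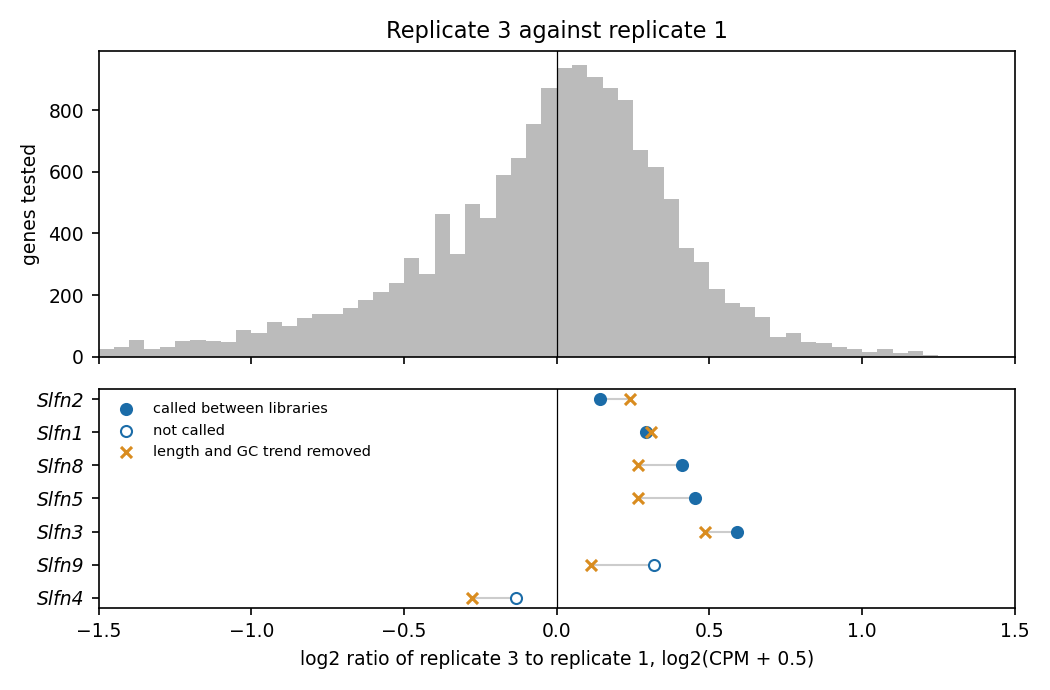
Top, number of genes tested by log2 ratio of replicate 3 to replicate 1, on log2(CPM + 0.5), shown from -1.5 to 1.5. Bottom, the same ratio for each Schlafen member (filled where the chi-square test called it) and with the length and GC trend removed (crosses). Of the 7 members, 6 lie above 0 on both measures and Slfn4 below.

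Type I interferon signalling is the classical input to this family, and its components were measured beside it. None of the 14 type I interferon ligand rows, Ifnb1 among them, had a count in any library, while Ifng, the T cell interferon, had 47.8, 42.5 and 36.4 CPM. Its library order was the opposite of that of most Schlafen members. Each of the 14 receptors and transducers averaged 10 CPM or more. The kinase gene Jak1 was at 440 ± 22.8 and the transcription factor gene Irf1 at 324 ± 19.4 CPM. The receptor chains Ifnar1 (108 ± 2.21 CPM) and Ifnar2 (28.1 ± 0.806 CPM) were not called. Of the 14, 7 were called, against 42.8% of all genes, and 3 were called with replicate 1 lowest and replicate 3 highest, against 16.1%. Both shares were near the background. Usp18, a brake on the type I receptor, had 13.0, 18.5 and 19.9 CPM, and Socs1, a brake on the kinases, had 47.6, 40.6 and 24.3 CPM.

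Interferon-stimulated effectors were all detected, with 17 of 25 at a mean of 10 CPM or more. They were led by the guanylate-binding protein gene Gbp2 at 296 ± 56.6, the immunity GTPase gene Irgm1 at 192 ± 17.1 and the ubiquitin ligase gene Trim25 at 158 ± 21.2 CPM. The chi-square test called 20 of 25, against 42.8% of all genes. Of the 25, 13 were called with replicate 1 lowest and replicate 3 highest, against 16.1% of all genes tested. Mx1, an antiviral GTPase, had 2.12, 3.23 and 5.39 CPM, and Oas2, a sensor of double-stranded RNA, had 4.71, 6.59 and 8.73 CPM. Ifit3 (7.62, 10.2 and 12.6 CPM), Oas1a (6.99, 5.74 and 10.3 CPM) and Cmpk2 (2.28, 4.15 and 2.97 CPM) also differed 1.5-fold or more. Bst2, Isg15 and Xaf1 were called with their highest level in replicate 1. With the length and GC trend removed, their log2 ratio of replicate 3 to replicate 1 moved from -0.46 to -0.08 for Bst2 and from -0.32 to -0.42 for Xaf1, and it turned from -0.26 to 0.18 for Isg15. The median log2 ratio of replicate 3 to replicate 1 was 0.38 over the 25 effectors, beside 0.32 over the Schlafen members, and 0.29 and 0.27 with the length and GC trend removed. Without replicate 1, 9 effectors were called, against 24.4% of all genes. Without replicate 3 there were 7, near the 22.8% of all genes, and with the trend removed 12, against 35.9%.

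**Figure D4:**
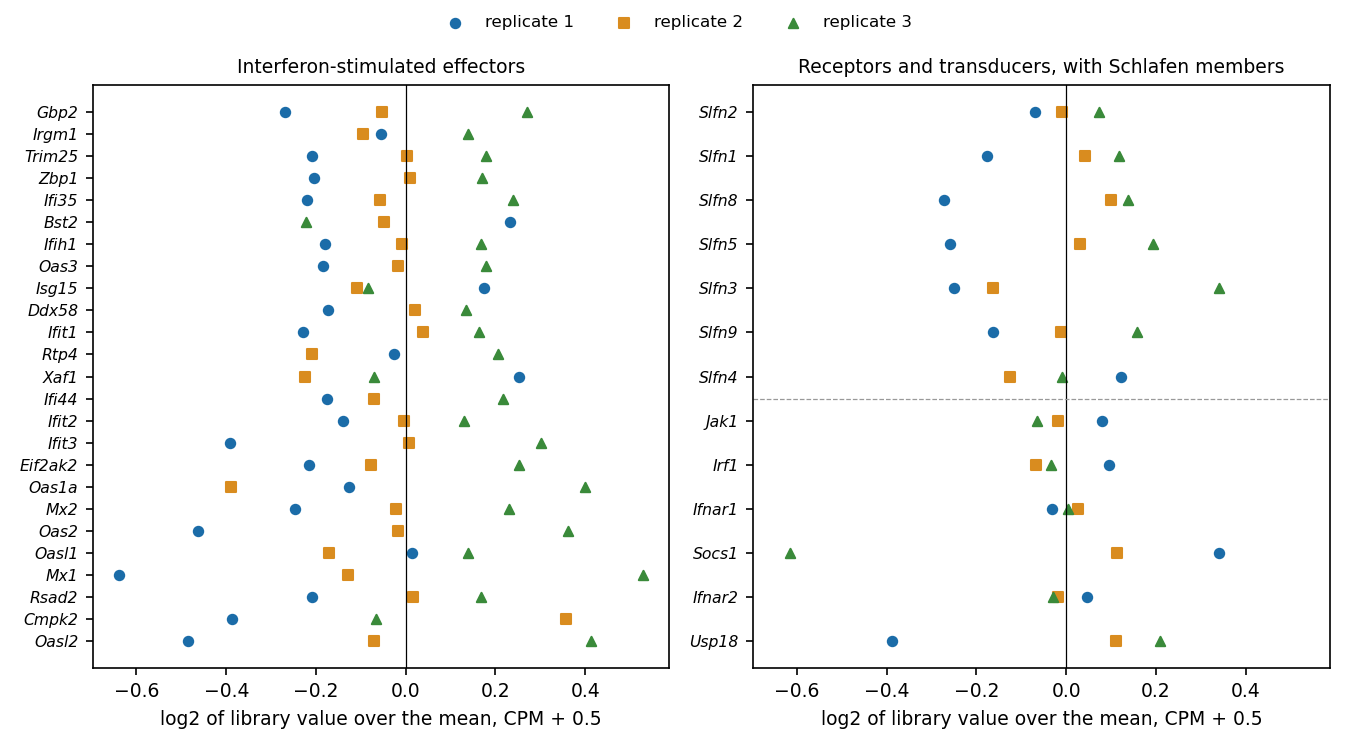
Log2 of each library's CPM + 0.5 over the gene's mean CPM + 0.5, for 25 interferon-stimulated effectors (left) and for Jak1, Irf1, Ifnar1, Ifnar2, Socs1 and Usp18 with the 7 Schlafen members above the dashed line (right). Genes are sorted by mean CPM in each block, and symbols are the 3 replicates. Replicate 1 is lowest for 6 of the 7 Schlafen members.

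Other factors that act on RNA were set beside the Schlafen genes. A list of 11 RNA nucleases and translation restriction factors averaged 10 CPM or more throughout. The most abundant were the antiviral protein gene Zc3hav1 at 514 ± 49.6, the nucleotide hydrolase gene Samhd1 at 443 ± 16.9 and the nuclease gene N4bp1 at 122 ± 4.32 CPM. The test called 9 of 11, against 42.8% of all genes. Of the 11, 7 were called with replicate 1 lowest and replicate 3 highest, against 16.1% of all genes tested. Without replicate 1, 5 were called (24.4% of all genes), without replicate 3, 4 (22.8%), and with the trend removed, 6 (35.9%). Samd9l, an interferon-induced translation repressor, had 41.9, 50.8 and 68.8 CPM. Rnaset2b, a lysosomal nuclease, had 89.8, 62.2 and 52.3 CPM, a count that is uncertain because of its near-identical copy Rnaset2a.

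Slfn2 is known to shield transfer RNA from angiogenin, so genes of that step were measured. Ang, the gene of angiogenin, had 0, 0 and 1 count, and its relatives Ang2, Ang4 and Ang5 had none. Rnh1, the inhibitor of such ribonucleases, was at 50.9 ± 3.13 CPM, below Slfn2 in every library. Nsun2, which methylates transfer RNA, was at 433 ± 12.3 CPM and Alkbh1, which removes methyl groups from it, at 68.5 ± 3.80 CPM. Of 5 genes tested in this list of 9, 2 were called (Nsun2 and Alkbh3), both highest in replicate 1, a share near the 42.8% of all genes.

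Quiescence genes, with which Slfn2 is grouped by its mutant phenotype, were present at a wide range of levels, with 11 of 13 measured at 10 CPM or more. Foxp1 was at 479 ± 30.2, Btg1 at 417 ± 24.5 and Foxo1 at 150 ± 9.18 CPM. Klf2, a factor of resting T cells, had 76.5, 60.1 and 43.6 CPM and Foxj1 had 5.50, 6.86 and 3.78 CPM, both called and both lowest in replicate 3. Of the 13 tested, 9 were called, against 42.8% of all genes. Called with replicate 1 lowest and replicate 3 highest were 3 of the 13, near the background of 16.1% of all genes tested. For Foxp1 and Btg1, both among these 3, removing the trend turned the log2 ratio of replicate 3 to replicate 1 from 0.18 to -0.02 and from 0.16 to -0.04. For Tsc1, also among these 3, it moved from 0.24 to 0.17. The list's median log2 ratio of replicate 3 to replicate 1 was -0.10.

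Slfn1 has been linked to control of cyclin D1, and cyclins and kinases of the G1 phase were measured for that reason. Ccnd1, the cyclin D1 gene, was under 1 CPM in every library (0.0786, 0.132 and 0.248 CPM), at or near the floor. Ccnd2, the cyclin D2 gene, was at 1009 ± 42.1 CPM, and the kinase genes Cdk4 and Cdk6 were at 328 ± 20.4 and 172 ± 9.48 CPM. Of 8 genes tested in this list of 9, 7 were called, against 42.8% of all genes. Called with replicate 1 lowest and replicate 3 highest were 2 of the 8, against 16.1% of all genes tested. For Cdk6, which was 1 of these 2, removing the trend turned the log2 ratio of replicate 3 to replicate 1 from 0.16 to -0.04. For Ccne1, the other, it moved from 0.49 to 0.59.

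The protein-coding genes nearest to Slfn2 in level per kilobase, by Euclidean distance of log2 values over the 3 libraries, were Irf4 (0.09), Tuba1b (0.23) and Cd53 (0.42). They were at 491, 470 and 562 CPM per kilobase. Irf4, an activation-induced transcription factor, had 446, 496 and 532 CPM per kilobase beside 460, 479 and 508 for Slfn2, and nothing beyond likeness of level is implied by 3 libraries.

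Markers of the labelled cell type were abundant, with all 12 T cell markers at 10 CPM or more, among them Cd5 at 651 ± 26.3 and Zap70 at 574 ± 43.3 CPM. The chi-square test between libraries called 11 of these 12, against 42.8% of all genes tested. Called with replicate 1 lowest and replicate 3 highest were 3 of the 12, against 16.1%. Markers of other spleen cells are given beside Slfn4, the lowest member. Monocyte and macrophage markers summed to 23.6, 29.7 and 29.4 CPM over 9 genes, led by Mpeg1 at 9.20 ± 1.44 and Ly6c2 at 6.33 ± 0.486 CPM. Ccr2 had 52, 99 and 116 counts and Cd68 had 67, 86 and 93, beside 62, 61 and 71 for Slfn4. Lyz2 had 2, 1 and 5 counts, Cd14 had 2, 1 and 2, and Vcam1 had 0, 10 and 1, while Csf1r and Cd163 had 0 in every library. Neutrophil markers summed to 1.26, 0.462 and 0.186 CPM, with all 10 under 1 CPM in every library (Ngp 0.179 ± 0.255 and S100a9 0.171 ± 0.159 CPM). B cell markers summed to 12.5 to 13.8 CPM (Pax5 2.96 ± 0.229). Dendritic cell markers summed to 10.4 to 12.5 CPM (Zbtb46 9.90 ± 0.888, Xcr1 0.937 ± 0.0779), with Clec9a, Siglech and Cd209a at 0. NK cell markers summed to 22.2 to 23.4 CPM, nearly all from Prf1 (12.7 ± 1.16) and Eomes (9.06 ± 1.73), which T cells also express, while Ncr1 was at 0. Erythroid markers summed to 5.26, 4.15 and 2.17 CPM (Hba-a1 1.64 ± 0.192, Hba-a2 1.17 ± 0.766), and platelet markers to 7.46 to 8.77 CPM, almost all Itga2b (7.90 ± 0.705), with Gp1ba at 0.0482 ± 0.0422. The part of these cells in any Schlafen level was not tested.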

How the data were processed

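Whole-number counts by gene symbol were deposited by the authors, in 1 column for each of the 3 libraries and with no normalization. Per the submitters' processing notes the genome was mm10. No source used here names the aligner, counting tool, strand setting or annotation. Totals were 13239482, 15007652 and 15683820 counts. TMM factors set the library sizes (edgeR 4.0.16, R 4.3.3). Variation between libraries was tested by chi-square for every gene expected to have at least 5 counts in each library (scipy 1.17.1), with Benjamini-Hochberg adjustment, after a trial on simulated data. DESeq2 1.42.0 size factors were an alternative. Lengths, GC content and coordinates came from GENCODE M21 (GRCm38), where 32226 of 44788 symbols matched, covering 92.7% of genes tested. The trend removed was a robust spline fit with 6 degrees of freedom each for GC content and length, over genes of 5 CPM or more.

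Members and gene lists were chosen with earlier results of these data known. Named genes were the members, other Schlafen genes, flanking genes, the 3 most abundant of each pathway list, those called with a 1.5-fold range, the 2 most abundant of each marker list, and the 3 nearest in level to Slfn2. Other genes named were picked after their values were seen. Vsir and Adgre1 were not matched. Some genes that this rule takes are not reported here.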

Additional observations from a re-analysis of the deposited data

How the results depend on the processing

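The order of the 7 members per kilobase was the same with 3 other lengths and without each replicate in turn. The log2 ratio of Slfn5 to Slfn3 moved from 0.38 to 0.80 by coding length and to 0.19 by the longest transcript. The number of members at 10 CPM or more was 5 with DESeq2 size factors and with no scaling factor, 4 to 5 without a replicate, 6 at 5 CPM and 4 at 20 CPM. The count of 5 members that differed between libraries was also 5 with DESeq2 size factors, with no scaling factor, with stricter or no count filters, at an adjusted p of 0.01 and with a likelihood-ratio test. Leaving out a replicate gave 2 to 5 called members, with 2 without replicate 1. The share of Slfn2 per kilobase was 73.2% by coding length and 75.7% when Slfn10-ps was counted with the family. Alternatives for the length and GC trend, for Slfn10-ps and for summed close copies were chosen after seeing the data. With close copies summed, 5 of 5 Schlafen rows were called, against 42.8% of all genes. Slfn9 and Slfn10-ps were added to Slfn8, and Slfn4 to Slfn3. The uncalled Slfn9 and Slfn4 were thus joined to called members with more counts, so 5 of 5 adds no support. No paired analysis was possible because there is 1 group. A count model with a contrast was not run, for the same reason. Depth limits Slfn4 and Slfn9 most, with 61 to 71 and 103 to 165 counts a library.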
